A study of Saccharomyces cerevisiae with 5 samples.

Results

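Ty1 and Ty2 are the most numerous retrotransposons of budding yeast, and 58 of the 6697 coding sequences (CDS) in the expression table are reading frames of these elements. The members were listed by systematic name, with the read values of these libraries already in view. No single threshold on the values separates all listed frames from the others, but among GAG rows 20 reads nearly does. Each listed GAG row reached 20 reads in at least one library. The unlisted GAG rows of these families stayed below that in both libraries, except YNL284C-A. The list holds 40 Ty1 rows (18 GAG and 22 GAG-POL, at 28 loci) and 18 Ty2 rows (8 GAG and 10 GAG-POL, at 10 loci). The whole table has 63 Ty1 and 21 Ty2 rows, so 23 and 3 rows of these families are outside the list. Poly(A)+ RNAseq was performed on BY4741, a haploid laboratory strain (MATa his3Δ1 leu2Δ0 met15Δ0 ura3Δ0), grown to mid-log phase in the rich medium YPD without copper or with 1 mM CuSO4 for 4 h. Both conditions share that genotype, and each has 1 library. For chromatin, 1 list of γH2A peaks (S139-phosphorylated histone H2A, a mark of replication fork stalling) was used, taken as that of unstressed YPD cells because the study's legend says so.

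A Ty element is a DNA copy of an mRNA, flanked by direct repeats called delta elements or long terminal repeats (LTRs). Its RNA encodes Gag, which builds the virus-like particle, and by a ribosomal frameshift a Gag-Pol fusion that carries protease, integrase and reverse transcriptase. Reverse transcription inside the particle starts from the initiator methionine tRNA, and Ty1 integrase prefers sites upstream of genes transcribed by RNA polymerase III.

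The GAG and GAG-POL rows of a locus begin at the same base, so reads in GAG are counted in both rows. The sequence at which the ribosome changes frame is shown because it separates the frames that the rows count. In each line the capitals mark the heptamer CTTAGGC, printed from the coding strand of the RefSeq R64 genome, and position 1 is the A of the start codon.
YLR157C-A: accttcacCTTAGGCcaggaacttactga
YDR316W-A: accttcatCTTAGGCcagaaacttactga
YDR034C-C: aacttagtCTTAGGCcagcaacagaaaga
The first window lies at chrXII:480279-480307 (minus strand) and is shared by 8 of the 18 Ty1 GAG members. The second lies at chrIV:1097358-1097386 (plus strand) and is shared by the other 10. The third lies at chrIV:518046-518074 (minus strand) and is the same in all 8 Ty2 GAG members. The heptamer starts at position 1303 in these 2 Ty1 copies and at 1291 in the Ty2 copy. It lies on the coding strand of 58 of 58 members and of 3.001% of all CDS (201, members included).

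The first 60 coding bases are shown because they hold the primer-binding site and because variants of them are shared by sets of copies. Capitals mark TGGTAGCGCC, the complement of the last bases of the initiator methionine tRNA with its CCA end, which begins at position 42.
YLR157C-B: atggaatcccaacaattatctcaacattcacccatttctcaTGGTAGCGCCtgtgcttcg
YDR316W-B: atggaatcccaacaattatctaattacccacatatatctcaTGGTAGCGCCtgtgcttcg
YML045W: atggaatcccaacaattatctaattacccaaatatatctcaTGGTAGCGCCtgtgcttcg
YGR027W-B: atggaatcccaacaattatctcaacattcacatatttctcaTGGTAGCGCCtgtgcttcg
YDR034C-D: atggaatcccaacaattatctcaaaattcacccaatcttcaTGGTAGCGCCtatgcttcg
YFL002W-A: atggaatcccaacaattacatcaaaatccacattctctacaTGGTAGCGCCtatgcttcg
These windows lie at chrXII:481542-481601 (minus strand), chrIV:1096064-1096123 (plus), chrXIII:184461-184520 (plus), chrVII:536057-536116 (plus), chrIV:519297-519356 (minus) and chrVI:138204-138263 (plus). The site was found in the first 60 bases of 58 of 58 members and of 1.209% of all CDS (81, members included). The start of YLR157C-B is shared by 13 Ty1 members, that of YDR316W-B by 12 and that of YGR027W-B by 7. The start of YDR034C-D occurs only in the 2 members of its own locus, and that of YFL002W-A in 6 Ty2 members.

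Whole reads were worked out from the deposited log2 values, giving 5572698 reads over all CDS in YPD and 5749810 in CuSO4. Of the genes deleted in the strain, LEU2, MET17 (MET15) and URA3 had 0 reads in both libraries. HIS3, of which his3Δ1 removes only a part, had 291 and 309. Changes are given as log2 of CuSO4 over YPD. With 1 library per condition there is no replicate error and no test, and the 95% Clopper-Pearson interval of a change covers counting error only. Copper and any other difference between the cultures, RNA preparations or libraries cannot be told apart, nor, in bulk RNA, can fewer cells with Ty RNA and less Ty RNA per cell.

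Ty1 reads were lower in the CuSO4 library. With each locus counted once, the 28 Ty1 loci had 20894 reads in YPD and 17851 in CuSO4. That is 0.375% and 0.310% of all reads, and a change of -0.28 (-0.31 to -0.25). The 10 Ty2 loci had 2630 reads in YPD and 1456 in CuSO4, a change of -0.90 (-0.996 to -0.81). Most of the Ty2 difference lay in the reads counted at 1 locus. Without YDR034C-D the Ty2 sum was 1201 reads in YPD and 1120 in CuSO4, a change of -0.15 (-0.27 to -0.03). The Ty1 sum stayed below 0 whichever locus was left out. Leaving out YGR027W-B gave -0.42 and leaving out YNL284C-B gave -0.20, the lowest and the highest of the 28 such sums. The family sums hide gains as well as losses: in reads not scaled to depth, 4 Ty1 loci gained 2008 together while 24 lost 5051. Among the 4 is YDR170W-A, with 144 and 148 reads but a change of -0.01. Loci without a listed GAG-POL row are counted by their GAG row alone. Of the unlisted GAG-POL rows of such loci, YPR137C-B had 296 and 318 reads (0.05), whereas YAR009C, YNL054W-B, YOR142W-B and YPR158C-D had changes below 0. Among Ty2 loci 4 gained 63 reads and 6 lost 1237.

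**Figure D1:**
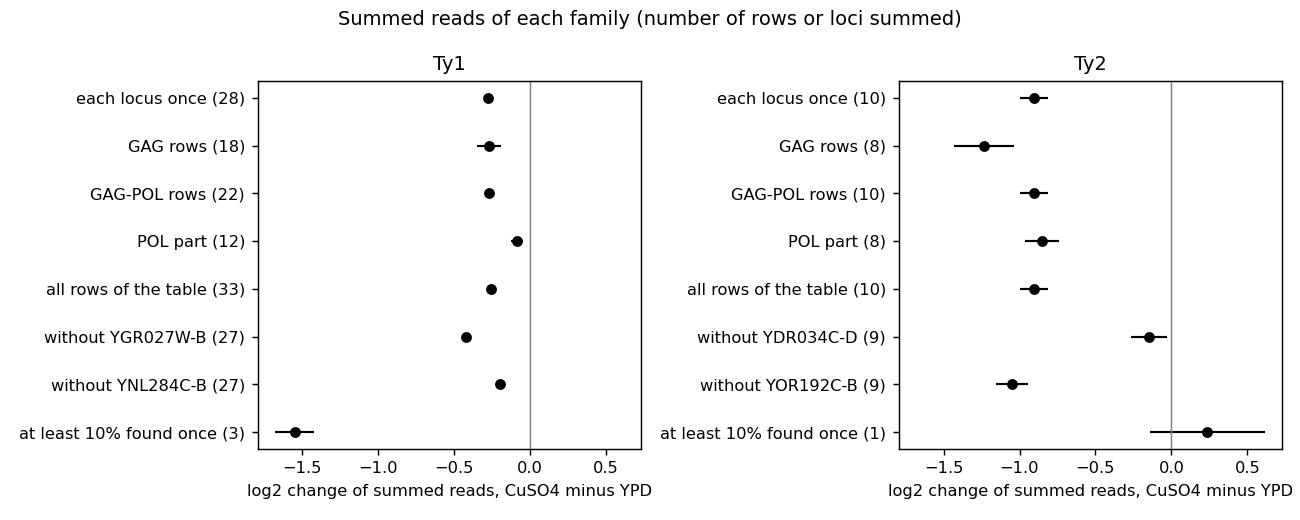
Log2 change of summed reads (CuSO4 minus YPD, horizontal axis) for Ty1 (left) and Ty2 (right), under each way of summing, with the number of rows or loci in brackets and bars for the 95% counting interval. The Ty2 point moves from -0.90 to -0.15 when YDR034C-D is left out, whereas the Ty1 points without 1 locus lie at -0.42 and -0.20.

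Over the single rows, 44 of 58 members had a change below 0, where 46.8% of all 6078 CDS that reached 20 reads in at least one library did. These were 32 of 40 Ty1 rows and 12 of 18 Ty2 rows. The counting interval lay wholly below 0 for 27 members (24 Ty1 and 3 Ty2), beside 10.1% of all CDS, and wholly above 0 for 5 members, beside 11.6%. At least 2-fold lower were 13 members (11 Ty1 and 2 Ty2), beside 0.658% of all CDS. At least 2-fold higher were 3 members, each Ty1, beside 0.526%. At 1.5-fold the counts were 18 lower and 7 higher, beside 1.53% and 2.4% of all CDS. The shares of all CDS include the members: in all, 40 CDS were at least 2-fold lower and 32 at least 2-fold higher. The values of these libraries were known when the list was drawn up, and GAG rows with few reads are not in it. The GAG and GAG-POL rows of a locus also share reads, so these counts describe the list. The median change was -0.36 over the Ty1 members, -0.17 over the Ty2 members and 0.01 over all CDS. Per kb of coding sequence the single member rows were below the typical gene. Their median log2 level was 5.85 in YPD and 5.44 in CuSO4, where the median of all CDS was 7.82 and 7.84. Most of their sequence occurs in several copies, and how reads matching several copies were counted is not given. These row levels therefore do not show how abundant Ty RNA was.

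**Figure D2:**
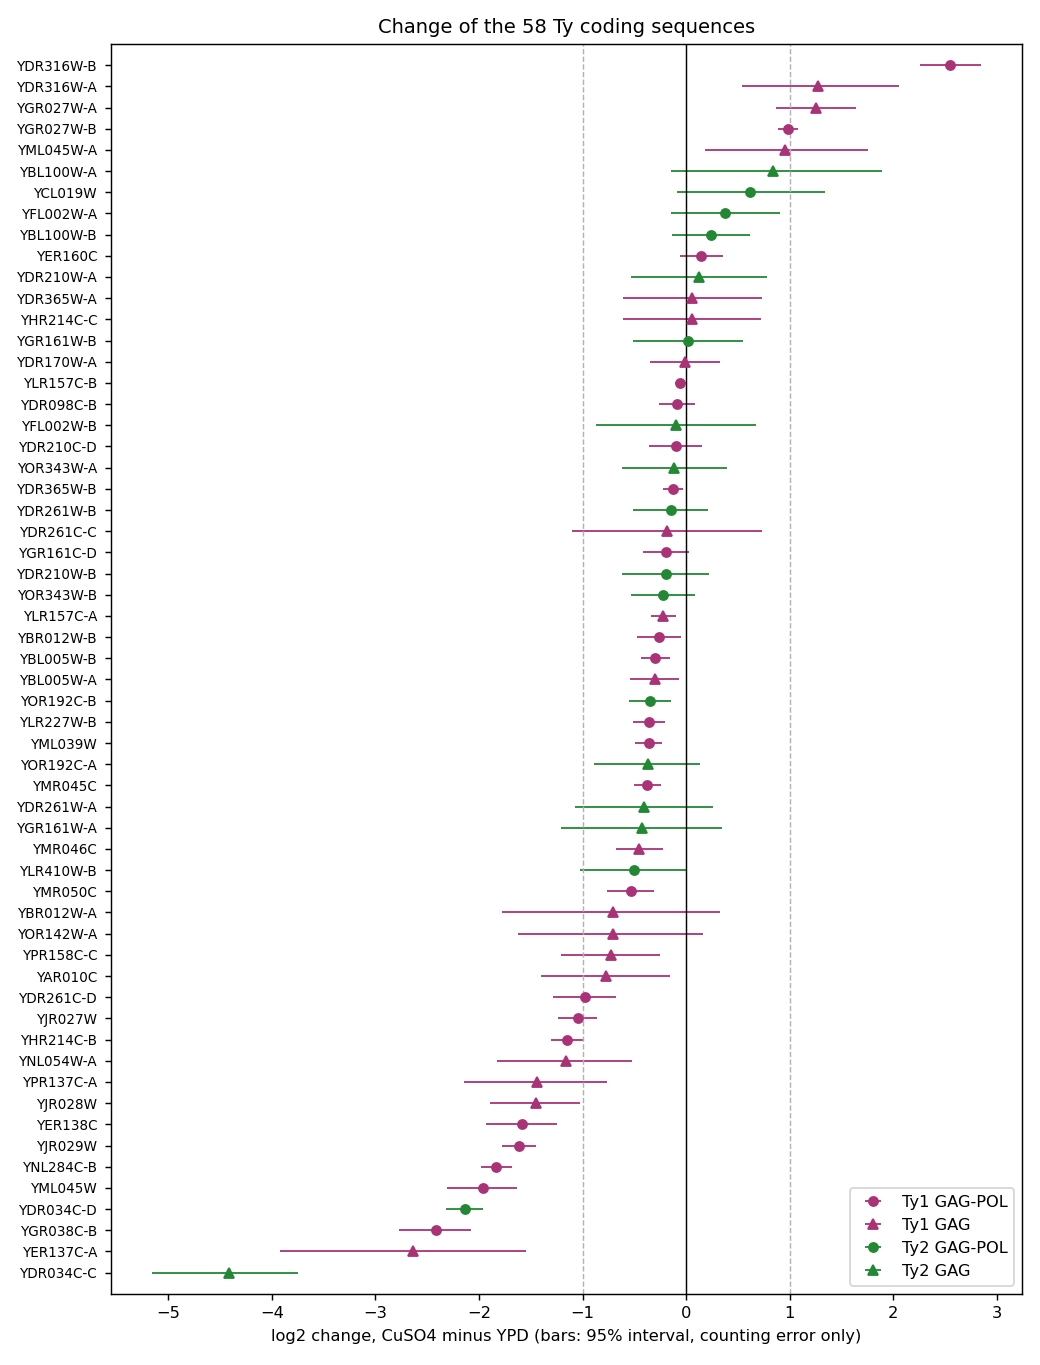
Log2 change (CuSO4 minus YPD, horizontal axis) of the 58 members in order of their change, coloured by family and marked by reading frame; bars are 95% counting intervals and the dashed lines mark 2-fold. The points run from -4.41 (YDR034C-C) to 2.55 (YDR316W-B), and most lie left of 0.

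The Ty1 copy with the largest increase was YDRWTy1-4 on chromosome IV. Its GAG-POL row YDR316W-B (chrIV:1096064-1101332) had 112 reads in YPD and 677 in CuSO4, a change of 2.55 (2.26 to 2.85). Its GAG row YDR316W-A had 22 and 55, a change of 1.27 (0.54 to 2.06). Both frames of this locus were higher with CuSO4, but the GAG reads are counted in both rows. No 50-base stretch of either frame is found only there, and whether these reads came from this locus was not tested. The genes on its flanks differed little between the libraries. OMS1, upstream, had 273 and 326 reads (0.21) and HIM1, downstream, 68 and 79 (0.17).

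YGRWTy1-1 on chromosome VII gained the most reads. YGR027W-B, its GAG-POL frame (chrVII:536057-541325), had 1316 reads in YPD and 2700 in CuSO4, a change of 0.99 (0.89 to 1.08). YGR027W-A, its GAG frame, had 80 and 197, a change of 1.25 (0.87 to 1.64). This locus alone held 1384 of the 2008 reads gained by Ty1 loci. The same limit holds here, as no 50-base stretch of either frame is found only at this locus. Its neighbour RPS25A, a ribosomal protein gene, had 6868 and 7290 reads (0.04), and MSP1 on the other side had 220 and 224 (-0.02).

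The larger losses were counted at loci spread over several chromosomes. YGR038C-B (chrVII:562199-567467) had 429 reads in YPD and 83 in CuSO4, a change of -2.42 (-2.78 to -2.08). YML045W (chrXIII:184461-189729) had 347 and 92, a change of -1.97 (-2.31 to -1.63). YNL284C-B (chrXIV:96964-102232) had 1668 and 485, a change of -1.83 (-1.98 to -1.69). All 3 are GAG-POL frames of Ty1, and the last lost the most reads of any Ty1 locus. YJR029W (chrX:478344-483612) had 1255 and 425, a change of -1.61 (-1.77 to -1.45), and its GAG row YJR028W had 166 and 63. The share of 50-base stretches found only at the locus was 0.54% for YGR038C-B, 0.59% for YML045W, 0% for YJR029W and 13.2% for YNL284C-B. Whether the lost reads came from these loci was not tested. Of the genes beside these loci, ORM1, next to YGR038C-B, had 337 and 342 reads (-0.03). MRPL10, next to YNL284C-B, had 441 and 535 (0.23).

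The row with the most reads showed almost no difference. Only 0.96% of its 50-base stretches are found once in the genome, so its reads do not show how abundant this copy was. YLR157C-B (chrXII:476333-481601), the GAG-POL frame of YLRCTy1-1, had 4985 reads in YPD and 4968 in CuSO4, a change of -0.05 (-0.11 to 0.00). It took 23.9% of the summed Ty1 reads in YPD and 27.8% in CuSO4. The element lies in the ASP3 region, and the next gene, ASP3-2, one of several near-identical asparaginase genes, had 513 and 528 reads (-0.01). The Ty1 row with the second most reads in YPD, YDR365W-B, had 1771 and 1681 reads, a change of -0.13 (-0.22 to -0.03).

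**Figure D3:**
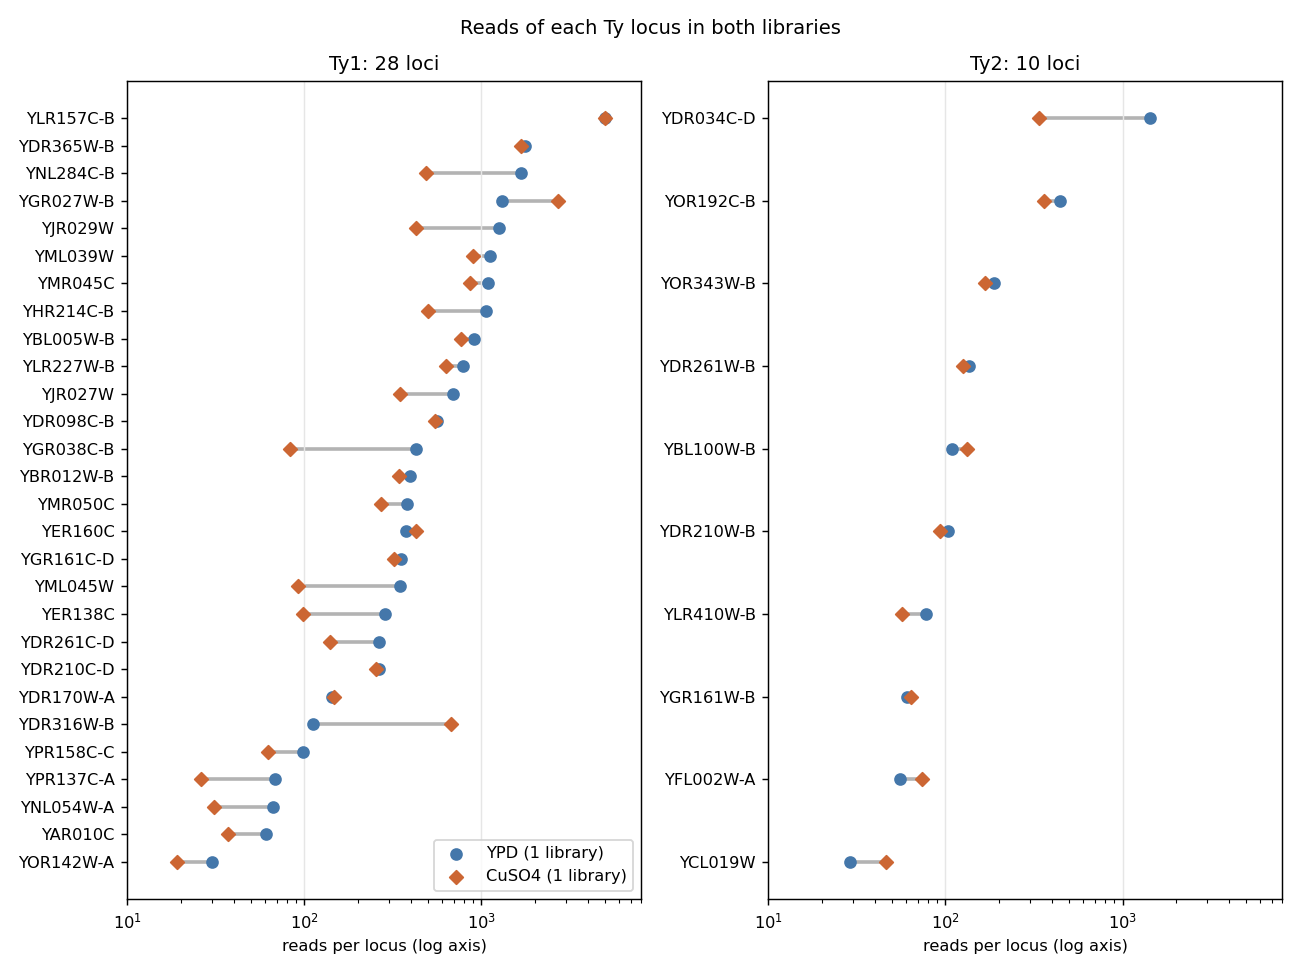
Reads per locus (horizontal log axis) in the YPD library (circles) and the CuSO4 library (diamonds) for the 28 Ty1 loci (left) and the 10 Ty2 loci (right), in order of their YPD reads; a grey line joins the 2 values of a locus. YGR027W-B and YDR316W-B stand to the right in CuSO4, YNL284C-B, YJR029W, YGR038C-B and YDR034C-D to the left, and YLR157C-B does not move visibly.

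Among Ty2 copies YDRCTy2-1 on chromosome IV stood apart. In YPD its GAG-POL frame YDR034C-D (chrIV:514043-519356) had 1429 reads, and the next Ty2 copy, YOR192C-B, had 443. In CuSO4 the order was reversed, with 336 reads for YDR034C-D and 360 for YOR192C-B. The change of YDR034C-D was -2.14 (-2.31 to -1.97) and that of YOR192C-B -0.35 (-0.55 to -0.15). The GAG frame YDR034C-C had 390 reads in YPD and 19 in CuSO4. Its change of -4.41 (-5.16 to -3.75) was the lowest of the 6363 CDS whose reads in YPD and CuSO4 added up to 10 or more. Only 2.8% of the 50-base stretches of YDR034C-C and 4.2% of those of YDR034C-D are found once in the genome. Whether the lost reads came from this locus was not tested. LYS14, a regulator of lysine synthesis on the 3′ side of this element, had 479 and 419 reads (-0.24), and YDR034C-A on the 5′ side had 5 and 5.

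The other Ty2 members ran from -0.50 (YLR410W-B) to 0.84 (YBL100W-A). YOR192C-A, a GAG frame, had 75 and 60 reads (-0.37), and YOR343W-A had 69 and 66 (-0.11). YOR343W-B had 188 and 167, a change of -0.22 (-0.53 to 0.09). The largest increases were those of YBL100W-A, with 14 and 26 reads (0.84, -0.15 to 1.89), and YCL019W, with 29 and 46 (0.62, -0.09 to 1.34). Both intervals hold 0, so an increase was not detectable at this depth. YBL100W-B had 109 and 133 reads (0.24), and YFL002W-A had 55 and 74 (0.38).

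Copies alike in sequence had like read numbers in some cases and unlike ones in others. Within Ty1 the median identity was 98.2% between GAG members and 96.3% between GAG-POL members, and within Ty2 98.5% and 98.8%. Between the families it was 64.7% for GAG and 73.0% for GAG-POL. The frames of 3 Ty1 loci, chosen after their values were seen, have the same GAG sequence over all 1323 bases. YLR157C-A had 1221 reads in YPD and 1084 in CuSO4, YDR365W-A had 38 and 41, and YER137C-A had 48 and 8. Identical coding bases thus had read numbers 32.1-fold apart in YPD and 135.5-fold apart in CuSO4. Their sum was 1307 reads in YPD and 1133 in CuSO4, a change of -0.26 (-0.37 to -0.14), whereas the single rows gave -0.22, 0.06 and -2.63. How RNAseq reads that match several copies were counted is not given in the sources used here, and the part of that step in these differences was not tested. Other identical frames had like numbers in both families. The Ty1 GAG rows YAR010C and YPR137C-A had 61 and 68 reads in YPD and 37 and 26 in CuSO4. The Ty2 frames YFL002W-A and YGR161W-B had 55 and 61 reads in YPD and 74 and 64 in CuSO4.

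The copy with the largest increase and a copy with one of the larger decreases are nearest neighbours in sequence. YDR316W-B and YML045W differ at 11 of 5269 bases, of which C31A lies in the start windows printed above (the base of YDR316W-B, its position from the start codon, and the base of YML045W). Their summed reads were 459 in YPD and 769 in CuSO4, a change of 0.69 (0.53 to 0.86), between the 2.55 and -1.97 of the single rows. YGR027W-B and YJR029W, the nearest pair for both, differ at 24 bases. They had similar read numbers in YPD (1316 and 1255) and 6.35-fold different ones in CuSO4 (2700 and 425), and their sum changed from 2571 to 3125 reads, by 0.23 (0.16 to 0.31). Of the 25 pairs of GAG-POL members with an identity of at least 99%, 8 had changes of opposite sign, and the median gap between the changes of a pair was 0.69. Among the 35 such GAG pairs, 14 had opposite signs.

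**Figure D4:**
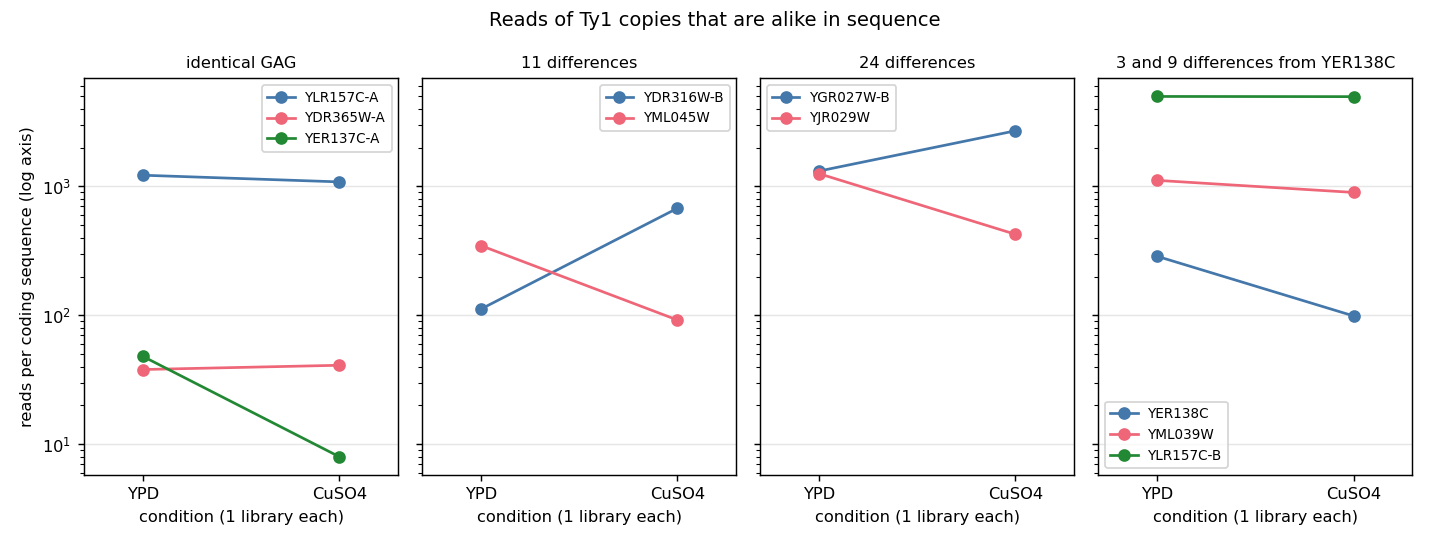
Reads per coding sequence (vertical log axis) in the YPD and CuSO4 libraries for 4 groups of Ty1 copies alike in sequence; each line is 1 copy, and the panel titles give the base differences (in the last panel from YER138C to YML039W and to YLR157C-B). Lines of near-identical copies cross or spread apart: YDR316W-B goes from 112 to 677 while YML045W goes from 347 to 92.

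Both pairs, and the pair YLR157C-B and YER138C (287 reads in YPD and 99 in CuSO4), share 5 substitutions within POL: T2755A, G2783C, A2789G, C2827T and T2833C, the first base being that of the copy with the higher change. The window is shown with these positions in capitals.
YDR316W-B: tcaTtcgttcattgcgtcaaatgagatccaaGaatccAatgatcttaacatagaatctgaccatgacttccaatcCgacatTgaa
YML045W: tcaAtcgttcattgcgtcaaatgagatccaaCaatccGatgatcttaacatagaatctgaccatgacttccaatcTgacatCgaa
The windows lie at chrIV:1098815-1098899 and chrXIII:187212-187296, both on the plus strand. The bases ACGTC at these positions were carried by 6 of the 19 GAG-POL members of 5269 bp, and all 6 had a change below 0, from -1.97 to -0.36. Their reads summed to 5052 in YPD and 2271 in CuSO4, a change of -1.20 (-1.28 to -1.13). The bases TGACT were carried by 7 members, 5 below 0 and 2 above, which ran from -2.42 (YGR038C-B) to 2.55. Their sum was 9530 and 10977 reads, a change of 0.15 (0.11 to 0.19). The positions were picked from pairs chosen for their unlike changes, and both sums include those pairs. The 2 carriers of TGACT above 0, YDR316W-B and YGR027W-B, are copies of those pairs. Outside the pairs each listed carrier was below 0. With ACGTC these were YML039W (-0.36), YMR050C (-0.54) and YNL284C-B (-1.83). With TGACT they were YDR098C-B (-0.09), YDR365W-B (-0.13), YGR161C-D (-0.20) and YGR038C-B (-2.42). Another 6 members had other bases, 5 below 0 and 1 above, with a change of -0.37. This split is thus a description of these rows and has no test.

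The share of a member's 50-base words that occur once in the genome was low, with a median of 1.55%. It was 0 for YDR316W-B and for YGR027W-B, so no 50-base stretch of these frames is found only there. The members with the highest shares were YDR170W-A (41.2%), YMR046C (22.3%) and YBL100W-A (19.7%). YDR170W-A, a GAG frame outside any annotated full-length element, had 144 and 148 reads, a change of -0.01 (-0.35 to 0.33). YMR046C had 382 and 289, a change of -0.45 (-0.68 to -0.23). The third was within counting error of no change, as given above. YBL005W-A, one of the GAG rows with most reads, with a share of 10.9%, had 334 and 280, a change of -0.30 (-0.54 to -0.07). Across the 22 Ty1 GAG-POL members the share found once and the size of the change had a Spearman rho of -0.31, and across the 18 Ty1 GAG members -0.39. In Ty2 it was -0.14 across the 10 GAG-POL members and 0.16 across the 8 GAG members. These points share both libraries and, where copies are alike, their reads.

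The GAG part and the part that only GAG-POL covers (POL) come from one transcript, and their read densities can be set side by side at the 20 loci with both rows in the list. In YPD, YLRCTy1-1 had 923 reads per kb in GAG and 954 in POL, a ratio of POL to GAG of 1.03. Among these 20 loci the lowest ratio was 0.24, at YGRWTy2-2, and the highest 15.3, at YDRWTy1-5, the locus of YDR365W-B. Loci whose GAG row is unlisted are left out, and several of them had few GAG reads and a higher ratio. In YPD, YERCTy1-2 had 1 read in GAG and 374 in POL (a ratio of 125), and YMLWTy1-2 had 10 and 1104 (37.0). YCLWTy2-1, also left out, had 13 and 16 (0.41). Near-equal density at the Ty1 locus with the most reads thus stood beside a wide range at the others. YDRCTy2-1, with 296 and 260 reads per kb in YPD, had 14.4 and 79.3 in CuSO4, so its GAG part was lower by more than its POL part. Summed over the loci with both rows, the POL part had a change of -0.086 (-0.12 to -0.048) in Ty1 (12 loci) and -0.85 (-0.96 to -0.74) in Ty2 (8 loci). At YMLWTy1-1 the frames went opposite ways. The GAG row YML045W-A had 22 reads in YPD and 44 in CuSO4, a change of 0.95 (0.18 to 1.76), and the POL part had 325 and 48, a change of -2.81 (-3.28 to -2.37).

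**Figure D5:**
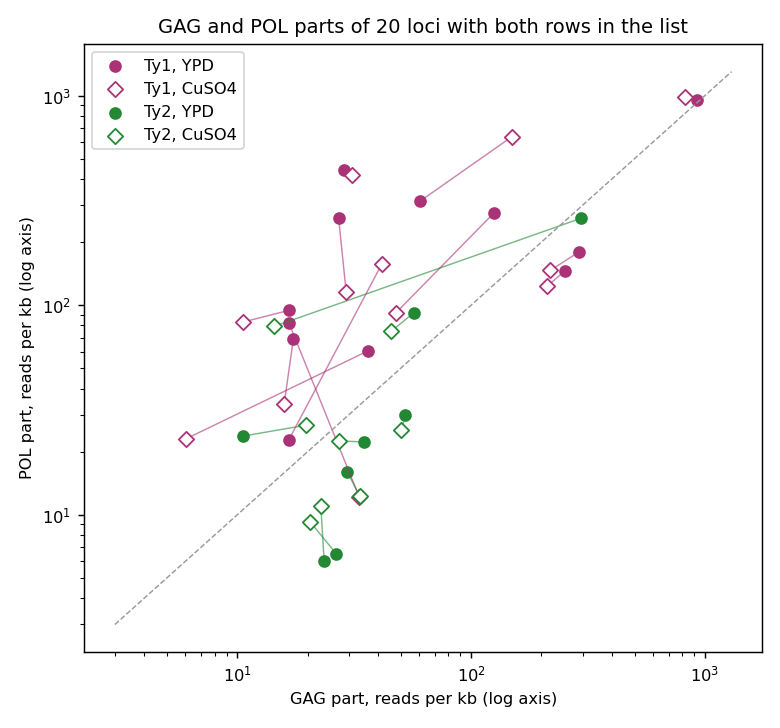
Reads per kb in the GAG part (horizontal log axis) and in the POL part (vertical log axis) of the 20 loci with both rows in the list; filled circles are YPD, open diamonds CuSO4, a line joins the 2 values of a locus, and the dashed line marks equal density. YLRCTy1-1 lies on that line at the upper right, and the longest shift to the left is that of YDRCTy2-1, from 296 to 14.4 reads per kb in GAG.

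Ty1 transcription depends on Tec1 and Ste12, which bind in the LTR and at the start of the element. Their genes were close to level. TEC1 had 650 reads in YPD and 718 in CuSO4 (0.09, -0.06 to 0.25), and STE12 had 794 and 785 (-0.07, -0.21 to 0.08). Of the 18 activators, repressors and upstream kinases listed, 0 were 2-fold higher or lower, with a median of -0.05, beside 0.526% and 0.658% of all CDS, so a list of this size would hold few such genes in any case. Between 250 bases before and 50 after the start codon, TGAAAC, the core of the Ste12 site, was found on either strand in 40 of 40 Ty1 and 18 of 18 Ty2 members, beside 19.9% of all CDS. CATTCC, a form of the Tec1 site, was found in 27 of 40 Ty1 members (67.5%) and 2 of 18 Ty2 members (11.1%), beside 11.3% of all CDS. CATTCT, the other form searched, was found in 1 of 40 Ty1 members (2.5%) and 11 of 18 Ty2 members (61.1%), beside 19.2%.

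The remaining lists hold host factors that act on chromatin, after transcription and at integration. Of the 23 SPT, SNF, SAGA, histone and related chromatin genes, many of them first found through their effect on Ty or delta insertions, 0 passed 2-fold, which is near the same shares of all CDS, and the median was 0.02. The counts of the lists that follow are near those shares too. SPT3, a SAGA subunit needed for Ty1 transcription, had 217 reads in YPD and 224 in CuSO4. Of 24 measured factors that act after transcription, 0 passed 2-fold. XRN1, the 5′ to 3′ exonuclease, had 2733 and 2539 (-0.16), and SSB1, a ribosome-associated Hsp70, had 18623 and 12365 (-0.64, -0.67 to -0.61), the one listed factor past 1.5-fold. Its near-identical paralogue SSB2 went the other way, with 16130 reads in YPD and 21717 in CuSO4 (0.38, 0.35 to 0.41). Of 23 integration and genome stability genes 0 passed 2-fold. RPC40, a polymerase subunit that Ty1 integrase binds, had 1415 and 1396 reads (-0.07).

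The non-Ty genes next to the loci were read at the same places of the chromosomes. Of 69 neighbours, 60 reached 20 reads in one library or both, with 0 at least 2-fold lower and 1 at least 2-fold higher, YOR343C (8 and 23 reads), beside 0.658% and 0.526% of all CDS. Past 1.5-fold lower, beside 1.53% of all CDS, were 3 neighbours: THI72, a transporter gene with 77 and 43 reads (-0.89, -1.46 to -0.33), YBR012C with 38 and 26 and CTR3 with 48 and 31 (-0.68, -1.38 to 0.00). CTR3 encodes a high-affinity copper transporter and lies 103 bp from the 3′ end of YLRWTy2-1, whose GAG-POL frame YLR410W-B had 78 and 57 reads (-0.50, -1.02 to 0.01).

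Of the 240 deposited γH2A peaks, 0 overlapped a member, where 4.91% of all CDS overlapped a peak. Within 1000 bp, 6 members at 3 loci had a peak. That is 10.3% of members, beside 8.84% of all CDS, and in each case the peak was upstream of the start codon. Before YLR157C-A and YLR157C-B a peak of 2.31-fold enrichment (chrXII:481857-482334) began 256 bp from the start codon and overlapped the annotated element by 41 bp. Its pileup at the summit was 857, whereas the peaks near YHR214C-B and YFL002W-A, of higher enrichment, had 353 and 244. Whether the near-identical genes of the ASP3 region bear on this was not tested. The peak before YHR214C-B and YHR214C-C (chrVIII:550139-551497) was 793 bp away, with 4.12-fold enrichment, and that before YFL002W-A and YFL002W-B (chrVI:136113-137275) 929 bp away, with 2.58-fold. These 3 loci are unlike in RNA: YLR157C-B was level, YHR214C-B had 1067 and 499 reads (-1.15, -1.30 to -0.99) and its GAG row YHR214C-C 39 and 42, and YFL002W-B had 31 and 30. A peak of 2.04-fold (chrIV:521207-521497) lay 1851 bp upstream of YDR034C-D, outside the 1000 bp. The part that ChIP reads matching several copies had in the absence of peaks inside the members was not tested. Peaks of the CuSO4 cells were not analysed here.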

How the data were processed

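Poly(A)+ RNA from 1 YPD and 1 CuSO4 culture had been sequenced with a directional kit, and γH2A ChIP and input DNA with a genomic kit. The authors mapped RNAseq reads with HISAT2 2.0.5 and ChIP reads with Bowtie2 2.2.5 to genome R64, per the labels. Per the study's methods, Bowtie2 ran with its default settings, which report one placement per read, and HISAT2 with a changed soft-clipping penalty only; duplicates were kept in peak calling. The authors deposited log2 values per CDS, counted in SeqMonk and divided by CDS length, in which a CDS without reads stands at 0.9 reads. They also deposited MACS2 peaks with pileup signal, fold enrichment and −log10 p-value; the −log10 p-values were not tested further. Read length, and how multiply placed RNAseq reads and strand were treated in the CDS counts, are not given in the sources used here, so sense and antisense Ty reads cannot be told apart.

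Reads were recovered as 2 to the power of the value, times length in kb, divided by a library scale of 1.0351 (YPD) or 1 (CuSO4). Whole reads resulted for 99.9% of the values of YPD and of CuSO4 alike (tolerance 0.05 reads). A CDS had 0 reads in 131 and 125 cases, which allows up to 3 reads each. Count tests were not run, since each condition has 1 library. Intervals are exact Clopper-Pearson at 95%. Counts of members took rows that reached 20 reads in at least one library. Identity came from MAFFT 7.526 alignments, and words and motifs from the RefSeq R64 sequence, with coordinates equal to the files' for 58 of 58 members. Python 3.11.15, pandas 2.3.3, numpy 2.4.6, scipy 1.17.1 and matplotlib 3.10.9 were used, and the recovery of reads was tested on simulated data.

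The members and lists were chosen with earlier results of these data known. Members named are the 6 with the largest rise and the 6 with the largest fall among those with at least 50 reads, the 3 of each family and frame with most reads in YPD, the 3 with the highest share found once, those with a peak within 1000 bp, and loci whose frames go opposite ways by 1.5-fold. YER137C-A, YER138C, YDR365W-A, YJR028W, YCL019W, YGR161W-B, YML039W and YLR410W-B were named after their values were seen, as were the neighbours set beside single loci.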

Additional observations from a re-analysis of the deposited data

How the results depend on the processing

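No value has a replicate error, and counting intervals are the only precision given. No paired analysis was possible because YPD and CuSO4 have 1 library each. Summing other rows left the direction of both families below 0, with 1 exception. For Ty1, against -0.28 over 28 loci, leaving out YGR027W-B gave -0.42 and leaving out YNL284C-B -0.20. The POL part gave -0.086, but over only the 12 loci with both rows. The loci thus differ as well as the part of the frame. For Ty2, against -0.90 over 10 loci, the 8 GAG rows gave -1.23, leaving out YOR192C-B -1.05 and leaving out YDR034C-D -0.15. Loci with at least 10% of words found once were an alternative chosen after seeing the data. They gave -1.55 for Ty1 (3 loci, 1879 and 664 reads) and 0.24 for Ty2, whose sign turned. The Ty2 value is 1 locus, YBL100W-B. The Ty1 value is mostly 1 locus too, YNL284C-B, with 1668 and 485 reads. Beside it, YDR170W-A had 144 and 148 reads and YNL054W-A had 67 and 31. Ty1 members at least 1.5-fold higher were 5 and at least 4-fold higher 1, against 3 at 2-fold, and 2 were at least 4-fold lower, against 11. Ty2 members at least 1.5-fold higher were 2, against 0. Members with a peak were 0 on overlap, 2 within 500 bp, 11 within 5000 bp and 2 with at least 3-fold enrichment, against 6. In that order these were 0%, 3.45%, 19.0% and 3.45% of members, beside 4.91%, 7.63%, 16.1% and 3.3% of all CDS. Ty1 members at least 1.5-fold lower were 16, against 11 at 2-fold. The median share found once was 1.00% with words of 36 bases, 2.53% with 75 and 2.88% with 100, against 1.55%. Centring on the median, the scale without CUP1 and all rows of the table gave -0.29 to -0.26 for Ty1 and -0.92 to -0.89 for Ty2.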

Other observations

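Among the other Ty families, the summed reads of Ty3 were higher in the CuSO4 library. The 2 Ty3 loci had 1171 reads in YPD and 1562 in CuSO4, a change of 0.37 (0.26 to 0.48). The larger part of the gain was at YIL082W-A, with 584 and 877 reads, beside 587 and 685 at YGR109W-B. Each of the 4 Ty3 rows was above 0, but at each locus the shorter frame lies inside the longer one. The intervals of the shorter frames, YIL082W (-0.15 to 0.50) and YGR109W-A (-0.14 to 0.62), hold 0. The 3 Ty4 loci had 375 and 431 reads, a change of 0.15 (-0.05 to 0.35) that holds 0 and rests on 1 locus. YPL060C-A had 265 and 363 reads (0.40), whereas YHL009W-B had 52 and 26 (-1.05, -1.79 to -0.34) and YJL113W had 58 and 42 (-0.52, -1.12 to 0.08). The Ty5 row had 0 reads in both libraries, which allows up to 3. These sums have no replicate, and the difference between the families was not tested.

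Ty1 rows outside the list bear on the split by 5 positions in POL. YOL103W-B, which carries the bases ACGTC, had 955 reads in YPD and 1061 in CuSO4, a change of 0.10 (-0.03 to 0.23), unlike the 6 listed carriers, each of which was below 0. The 3 unlisted carriers of TGACT summed to 636 and 607 reads, a change of -0.12 (-0.28 to 0.05). At 2 loci the GAG row had 0 reads in both libraries beside a well covered POL part: YLR227W-A next to 783 and 633 POL reads, and YGR161C-C next to 354 and 320. YNL284C-A, the GAG row of the locus that lost most Ty1 reads and the GAG row with 34.5% of its words found once, had 211 and 99 reads, a change of -1.14.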
